A study of Mus musculus with 16 samples.

Results

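The respiratory chain and the ATP synthase were followed through their nuclear-encoded subunit genes. All probe sets annotated to exactly 1 gene whose symbol begins with Ndufa, Ndufb, Ndufc, Ndufs or Ndufv (without the Ndufaf assembly factors), Sdhb, Sdhc, Sdhd, Uqcr, Cox4 to Cox8 (without Cox6b2) or Atp5, or is Cyc1 or Cycs, were taken. This gave 169 of 45037 probe sets and 82 of 18193 genes. Complex I contributed 34 genes, complex II 3, complex III 9 (Cyc1 among them), cytochrome c 1, complex IV 18 and the ATP synthase 17. Ndufa4 and Ndufa4l2 carry complex I names but were counted with complex IV, where the NDUFA4 protein is now placed. The rule works on symbols and uses no measured value, but it was chosen with earlier results of these data known.

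Expression was measured in livers of 16 male mice, in 4 groups of 4, each on an Affymetrix mouse genome 430 2.0 array of its own. PPARα-null mice (KO, substrain 129S4/SvJae) had received Wy14643, a synthetic PPARα agonist, at 0.1% of the food by weight for 5 days, or normal food. Wild-type mice (WT, substrain 129S1/SvImJ) had received the same 2 diets. All animals were 12 to 20 weeks old. Since the genotypes differed in substrain, a difference between KO and WT cannot be told apart from one between substrains. Either response to the agonist compares mice of a single substrain. A difference between the KO and the WT response, however, again cannot be told apart from one between substrains. The null allele was present in the whole animal and not in hepatocytes alone.

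Electrons from NADH enter the chain at complex I and those from succinate at complex II. They pass through coenzyme Q to complex III and by cytochrome c to complex IV, where oxygen is reduced, and the proton gradient built up on the way drives the ATP synthase. Liver uses this chain to reoxidize the NADH and FADH2 that β-oxidation of fatty acids yields, and β-oxidation is the classical pathway under control of PPARα. Most subunits are encoded in the nucleus, and some subunits of complex IV exist as isoforms with a different tissue distribution.

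Values are log2 intensities, and differences are on the same scale. The median log2 intensity over all probe sets was 2.15 to 2.24. The deposited values had been normalized across arrays, so this likeness says little of the arrays. The highest intensity was 18107 to 19989 in KO on Wy14643 and 18204 to 19239 in KO on control food. It was 20311 to 22364 in WT on Wy14643 and 18385 to 19396 in WT on control food. Pearson's r over probe sets with a mean above 4 was 0.975 to 0.991 between arrays of a group and 0.877 to 0.987 between groups. Hepatocyte markers were bright on every array (sum of 12 genes 91117 to 94247 in KO on Wy14643, 91270 to 95758 in KO on control food, 68041 to 74800 in WT on Wy14643 and 92754 to 96843 in WT on control food), as liver should show. For a gene with several probe sets, the brightest one on average was used in all counts, and 72 of the 82 subunit genes had a mean log2 of at least 6.

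To show what lies upstream of genes that moved in different ways, the 250 bases before the annotated start are given for 4 of them, in RefSeq's GRCm38.p6 sequence and on the strand of the gene. Cycs (chr6:50566570-50566819, minus strand), Ndufb3 (chr1:58586147-58586396, plus strand) and Cox7a1 (chr7:30183921-30184170, plus strand) were higher in WT on Wy14643, and Sdhb (chr4:140961021-140961270, plus strand) was lower. Capitals mark matches to the motifs named after the sequences.
Cycs: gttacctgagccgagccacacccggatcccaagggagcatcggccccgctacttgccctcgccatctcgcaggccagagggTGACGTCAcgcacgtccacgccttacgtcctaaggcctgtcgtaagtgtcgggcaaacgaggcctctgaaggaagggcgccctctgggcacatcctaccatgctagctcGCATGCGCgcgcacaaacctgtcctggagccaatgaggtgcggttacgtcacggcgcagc
Ndufb3: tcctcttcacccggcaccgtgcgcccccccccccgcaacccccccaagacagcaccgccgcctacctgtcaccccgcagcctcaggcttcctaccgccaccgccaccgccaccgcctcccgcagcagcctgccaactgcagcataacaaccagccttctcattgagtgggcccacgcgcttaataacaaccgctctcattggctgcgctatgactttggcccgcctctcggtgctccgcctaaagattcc
Cox7a1: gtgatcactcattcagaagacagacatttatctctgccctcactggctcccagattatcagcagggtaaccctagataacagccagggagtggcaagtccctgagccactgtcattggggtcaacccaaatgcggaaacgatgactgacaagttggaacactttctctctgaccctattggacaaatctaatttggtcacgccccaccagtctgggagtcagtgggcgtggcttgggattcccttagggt
Sdhb: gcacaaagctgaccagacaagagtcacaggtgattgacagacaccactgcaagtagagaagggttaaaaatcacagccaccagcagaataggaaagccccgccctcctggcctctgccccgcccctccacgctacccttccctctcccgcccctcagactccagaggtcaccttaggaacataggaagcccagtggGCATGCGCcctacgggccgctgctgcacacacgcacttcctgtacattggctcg

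Promoters of 300 bases (250 before and 50 after the start) were at hand for 66 of the 82 genes, and each motif was searched on both strands. The motif of nuclear respiratory factor 1 (GCATGCGC), a regulator known for cytochrome c and other subunit genes, was found in 10 of 66 (15.2%), against 3.05% of all 27025 genes with a promoter. The ETS motif (CCGGAAG), bound by GABP, was in 17 (25.8%, against 9.93% of all genes). The YY1 motif (AAGATGGC) was in 9 (13.6%, against 3.19%), and the cAMP response element (TGACGTCA) in 4 (6.06%, against 2.03%). The element of estrogen-related receptors (TCAAGGTCA) was in 2 (3.03%, against 0.466%). A strict form of the direct repeat bound by PPARα (AGGTCA given a second time after 1 free base) was in 0 of 66, against 0.0481% of all genes. This repeat and the estrogen-related receptor element share the letters AGGTCA, and no match says only that the exact repeat is not in this window. Since so few genes of any kind hold it, 0 of 66 says little. The NRF1 motif stood 60 bases before the start in Cycs and 54 before it in Sdhb, and Cycs held a cAMP response element as well. Neither Ndufb3 nor Cox7a1 had a match in the printed stretch. A match is a description of the sequence and was not related to the expression values by a test.

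The response to Wy14643 in WT liver asks what 5 days of agonist did to these genes. Subunit genes of every complex were higher in WT on Wy14643, by small amounts. At an adjusted p under 0.05 (limma, Benjamini-Hochberg over all probe sets) 47 of 82 were higher and 1, Sdhb, was lower, where 13.0% of all genes were higher and 13.0% lower. Among genes with a mean log2 of at least 6 it was 46 of 72 subunit genes, against 24.1% of all such genes. The median difference was 0.24 over the subunit genes (interquartile range 0.15 to 0.38) and -0.03 over all genes, and 76 of the 82 differences were positive. The arrays of the groups did not overlap in 59 genes that were higher (background 14.4%) and in 2 that were lower, Ndufa13 and Sdhb (background 14.7%). With a mean log2 of at least 6 it was 58 of 72 higher and 2 lower, against 27.8% and 31.6% of all such genes. Against all 12 other arrays, those of WT on Wy14643 lay above in 56 subunit genes (background 10.6%) and below in 2 (background 9.16%). At a mean log2 of at least 6 they lay above in 55 of 72 and below in 2, against 22.6% and 23.5% of all such genes.

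**Figure D1:**
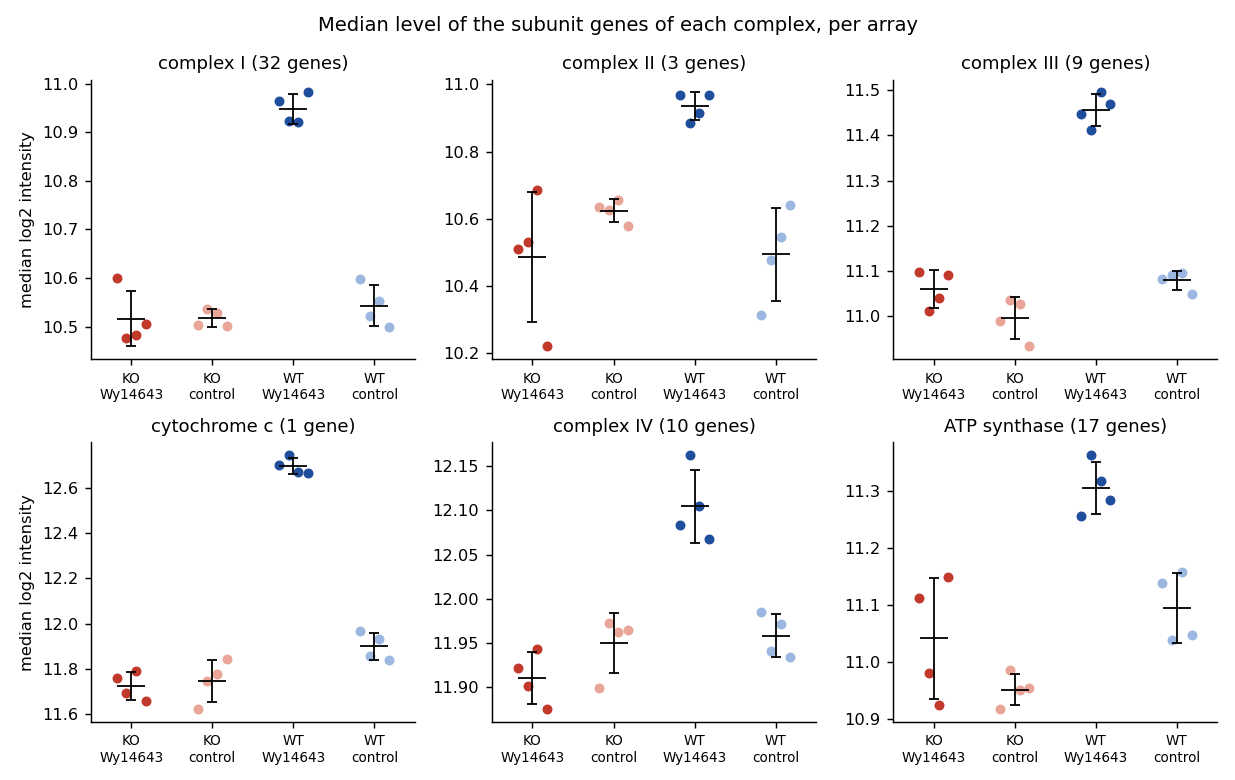
Median log2 intensity (vertical axis) over the subunit genes of each complex with a mean log2 of at least 6, 1 point per array, in the 4 groups on the horizontal axis, with bars for mean and SD of 4 arrays. In complex I the 4 livers of WT on Wy14643 lay between 10.92 and 10.98, and the other 12 between 10.48 and 10.60.

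The same order held within the complexes when each array was summarized by the median of its bright subunit genes. For complex III this median was 11.01 to 11.10 in KO on Wy14643, 10.93 to 11.03 in KO on control food, 11.41 to 11.50 in WT on Wy14643 and 11.05 to 11.09 in WT on control food. For complex IV it was 11.88 to 11.94 in KO on Wy14643, 11.90 to 11.97 in KO on control food, 12.07 to 12.16 in WT on Wy14643 and 11.93 to 11.99 in WT on control food. For the ATP synthase it was 10.92 to 11.15 in KO on Wy14643, 10.92 to 10.98 in KO on control food, 11.26 to 11.36 in WT on Wy14643 and 11.04 to 11.16 in WT on control food. In each of these complexes WT on Wy14643 lay above the other 12 livers, with the smallest gap in complex IV.

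The 169 probe sets gave a like picture to the 82 genes. Of 38 subunit genes with several probe sets at a mean log2 of at least 6, the signs of the WT response differed between probe sets in 1 and the calls in 8. The median WT response was 0.28 for the brightest probe sets and 0.30 for the mean of the others. The brightest one gave the smaller value in 24 of the 38 (63.2%), against 63.7% of 794 genes of all kinds with several such probe sets and a positive response. Over the 72 bright subunit genes, level and WT response were weakly related (Spearman's rho -0.24, Pearson's r -0.23, across genes of the same arrays, which are not independent).

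Larger changes were few. With the limits of the study's methods, an adjusted p under 0.01 and a fold over 1.5, 6 of 82 subunit genes were called higher and 0 lower. That is 7.32%, near the 7.72% of all genes called higher by that rule, whereas 6.74% of all genes were called lower. With a mean log2 of at least 6 it was 5 of 72 higher (6.94%), against 12.4% of all such genes. The 6 were Ndufb3, Ndufc1 and Ndufa5 of complex I, Uqcr10 of complex III, Cycs, and Cox7a1 of complex IV. The ATP synthase and complex II had none.

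In KO liver the same agonist left these genes without a call. By limma 0 of 82 passed either rule (background 0.0989% of all genes in either direction at an adjusted p under 0.05, and 0.0275% by the stricter rule). At an unadjusted p under 0.05 there were 3, Ndufa7 higher and Ndufb6 and Ndufc1 lower, which is 3.66% against 10.3% of all genes. The median difference was 0.02 and the range -0.19 to 0.24. Arrays did not overlap in 5 genes that were higher and in 0 that were lower (background 3.68% and 2.7%). With a mean log2 of at least 6 it was 4 of 72 higher (5.56%) and 0 lower, against 6.09% and 5.42% of all such genes.

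**Figure D2:**
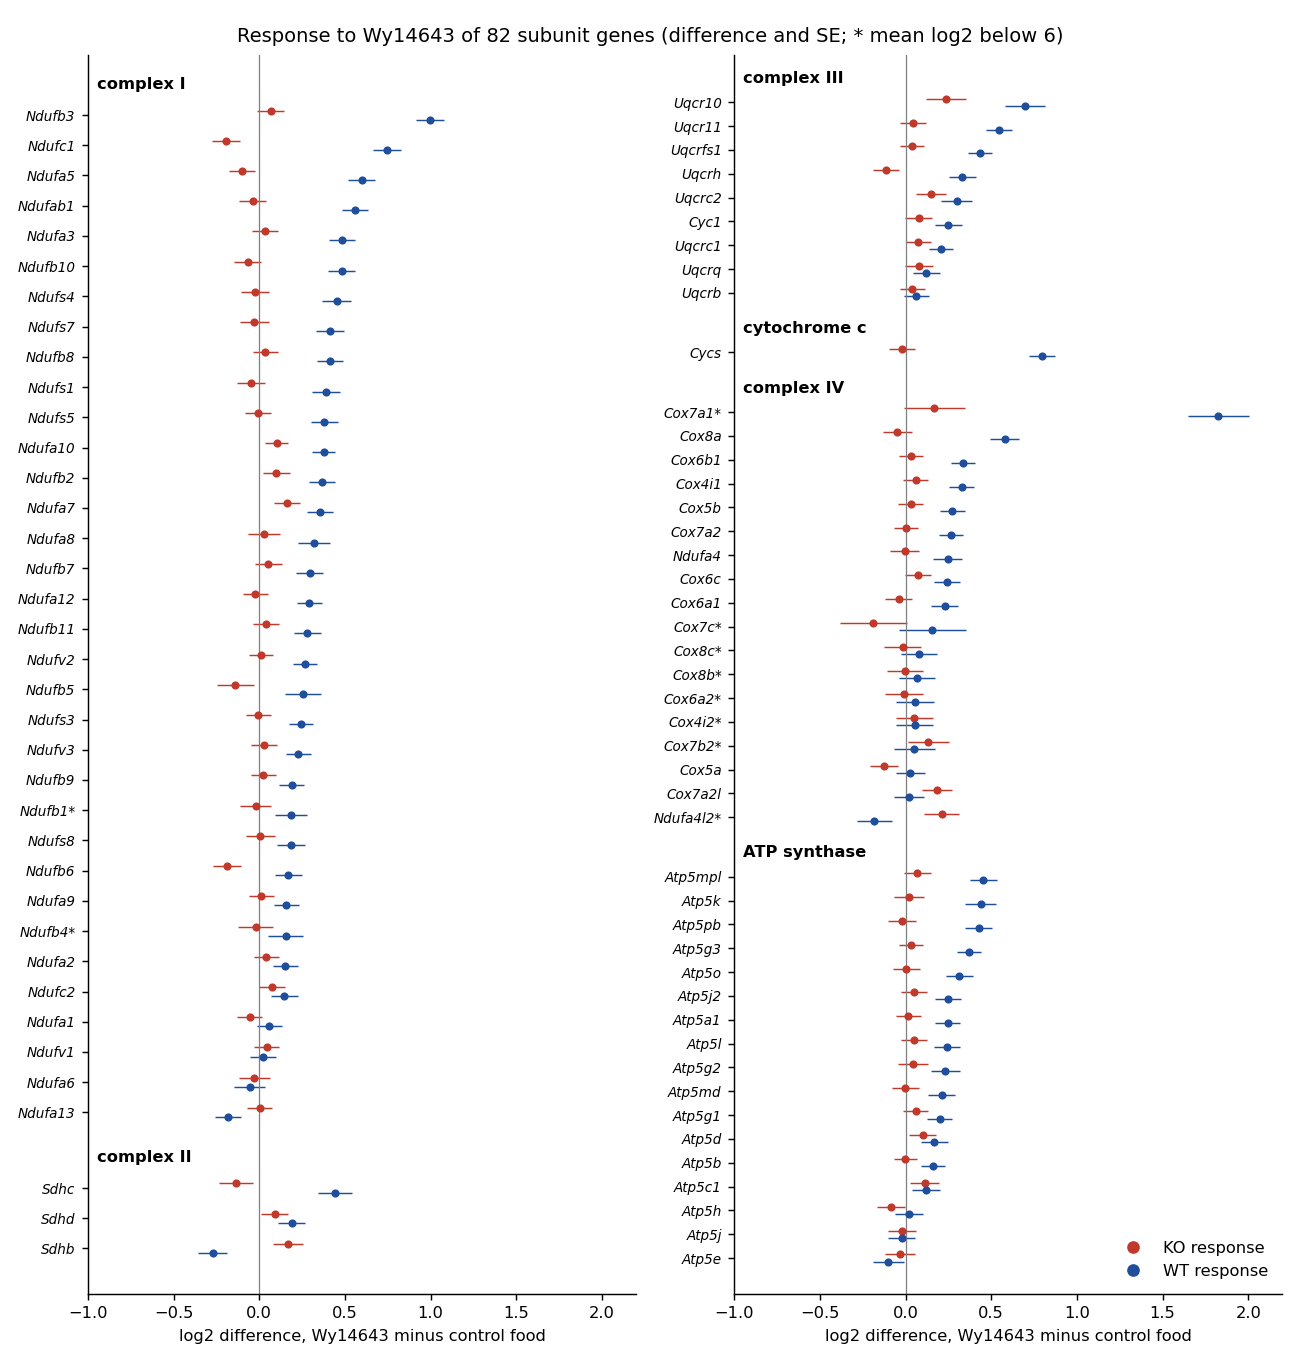
Log2 difference between Wy14643 and control food (horizontal axis) with its SE for each of the 82 subunit genes, by complex, in KO liver (red) and WT liver (blue). WT responses run to 1.83 and KO responses stay between -0.19 and 0.24.

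The test of the difference between both responses (interaction, KO response minus WT response) called 22 subunit genes lower and 1, Sdhb, higher at an adjusted p under 0.05, with a background of 8.76% and 7.65%. By the stricter rule it was 7 lower and 0 higher, against 5.38% and 4.62% of all genes. With a mean log2 of at least 6, 21 of 72 were lower at 0.05 (29.2%), against 16.5% of all such genes. There the stricter rule called 6 of 72 lower (8.33%), near the 9.85% of all such genes. The 7 called by the stricter rule were Ndufb3, Ndufc1, Ndufa5, Ndufab1, Cycs, Cox8a and Cox7a1. Ndufab1 fell short of it without replicate 4 of KO on Wy14643, replicate 4 of WT on Wy14643 or replicate 1 of WT on control food, and also with array weights and after quantile normalization. With the mean of all probe sets Ndufab1 missed an adjusted p under 0.05 in the interaction as well (-0.28, adjusted p = 0.271). Cox8a fell short of the stricter rule without replicate 2 of KO on control food and with the mean of all probe sets. The median interaction was -0.23, against 0.04 over all genes. The 2 responses share no samples. With only probe sets of a mean above 4 tested, the interaction count in both directions was 39 of 72, against 23 of 82 with all probe sets. The share of all genes at that setting was not counted, so the rise cannot be read as particular to the subunit genes.

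Complex I takes electrons from NADH and is the largest of the complexes. In WT liver 21 of its 34 genes were higher on Wy14643 and 0 were lower (median 0.29). The background was 13.0% higher and 13.0% lower over all genes, and 24.1% higher over those with a mean log2 of at least 6. Of the nuclear-encoded core subunits, some of which carry the flavin or iron-sulfur clusters, 6 were measured and 4 were higher (median 0.26). Of the 28 accessory subunits 17 were higher (median 0.29).

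Ndufb3, an accessory subunit of the membrane arm, had the largest difference of complex I. Its log2 values were 9.37, 9.48, 9.32 and 9.36 in KO on Wy14643, 9.29, 9.39, 9.39 and 9.19 in KO on control food, 10.74, 10.60, 10.76 and 10.67 in WT on Wy14643, and 9.78, 9.63, 9.69 and 9.68 in WT on control food. WT on Wy14643 lay apart from all other livers, and KO on control food lay below WT on control food without overlap. The WT response was 0.997 ± 0.08 (SE, 2.00-fold, adjusted p = 4.56e-08, limma) and the KO response 0.07 ± 0.08 (adjusted p = 0.861). The interaction was -0.93 ± 0.11 (adjusted p = 1.66e-05).

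Ndufc1, another small accessory subunit of the membrane arm, followed. It had 9.81, 9.71, 9.86 and 9.62 in KO on Wy14643, 9.94, 10.05, 9.93 and 9.86 in KO on control food, 10.89, 10.82, 10.74 and 10.74 in WT on Wy14643, and 9.99, 10.07, 10.10 and 10.03 in WT on control food. Only the arrays of WT on Wy14643 stood clear of the rest. The WT response was 0.75 ± 0.08 (1.68-fold, adjusted p = 2.09e-06) and the KO response -0.19 ± 0.08 (adjusted p = 0.479). A second probe set gave 0.88 in WT.

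Ndufa5, an accessory subunit of the matrix arm, had 10.24 to 10.38 in KO on Wy14643, 10.36 to 10.47 in KO on control food, 10.93 to 11.11 in WT on Wy14643 and 10.36 to 10.49 in WT on control food. Its WT response of 0.60 ± 0.08 was 1.51-fold, just past the fold limit, and its second probe set gave 0.60 as well. The stricter call was lost without replicate 1 or 4 of WT on Wy14643 or without replicate 4 of WT on control food, with differences of 0.57 to 0.62 over all 16 refits. Ndufab1, the mitochondrial acyl carrier protein, which is both a subunit of complex I and a part of mitochondrial fatty acid synthesis, rose by 0.56 ± 0.08 (adjusted p = 3.24e-05). Of its 4 other probe sets 1 gave 0.70, and the remaining ones, with a mean log2 of at most 3.6, did not pass the test. With the mean of all 5 probe sets the WT response of Ndufab1 was 0.19 (adjusted p = 0.257).

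Ndufs4, an accessory subunit whose loss causes an encephalopathy in mice, rose by 0.45 ± 0.08 in WT (adjusted p = 6.65e-04) and gave -0.03 ± 0.08 in KO. With the mean of all its probe sets, of which the others are dim, the WT response of Ndufs4 was 0.06 (adjusted p = 0.742), and its calls between the genotypes on Wy14643 and in the interaction were lost too. Ndufa13, an accessory subunit also known as GRIM-19, had the lowest WT response of the complex. It had 11.29, 11.20, 11.14 and 11.12 in KO on Wy14643, 11.19, 11.24, 11.19 and 11.13 in KO on control food, 11.04, 10.94, 11.01 and 11.01 in WT on Wy14643, and 11.16, 11.19, 11.23 and 11.14 in WT on control food. The WT groups did not overlap, but the difference of -0.18 ± 0.07 missed the limit (adjusted p = 0.0990). Ndufv1, a core subunit that binds NADH, gave 0.02, whereas the iron-sulfur core subunits Ndufs1 and Ndufs7 rose by 0.39 and 0.41. The interaction passed for 11 of the 34 genes of the complex, all with a KO response below that of WT. In that direction it passed for 8.76% of all genes and 16.5% of those with a mean log2 of at least 6.

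Ndufa3 and Ndufb10, accessory subunits of the membrane arm, followed after these. Ndufa3 had 11.91, 11.87, 11.76 and 11.98 in KO on Wy14643, 11.91, 11.87, 11.79 and 11.81 in KO on control food, 12.36, 12.34, 12.42 and 12.34 in WT on Wy14643, and 11.93, 11.83, 11.91 and 11.86 in WT on control food. The arrays of WT on Wy14643 again lay above all others, with a WT response of 0.48 ± 0.08 (adjusted p = 1.26e-04). Ndufb10 rose by 0.48 ± 0.08 as well, with an interaction of -0.55. The probe sets of Ndufb1 and Ndufb4 were dim, with means of 3.2 and 1.1, so their differences of 0.19 and 0.15 say little of these subunits.

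Complex II, succinate dehydrogenase, joins the citric acid cycle to the chain, and its 3 subunits under study went different ways. Sdhb, the iron-sulfur subunit, was the only subunit gene called lower in WT on Wy14643 at an adjusted p under 0.05. Its values were 11.55, 11.47, 11.52 and 11.77 in KO on Wy14643, 11.45, 11.43, 11.34 and 11.40 in KO on control food, 11.25, 11.19, 11.21 and 11.15 in WT on Wy14643, and 11.53, 11.52, 11.53 and 11.31 in WT on control food. All WT livers on Wy14643 lay below all others, and the nearest value was that of replicate 4 of WT on control food. The WT response was -0.27 ± 0.09 (adjusted p = 0.0326), the KO response 0.17 ± 0.09 (adjusted p = 0.586) and the interaction 0.44 ± 0.12 (adjusted p = 0.0236). The call in WT was lost in 6 of 16 refits without 1 array, those without replicate 2, 3 or 4 of WT on Wy14643 or replicate 1, 2 or 3 of WT on control food, with differences of -0.33 to -0.25 over the 16 refits. The interaction missed the limit only without replicate 3 of KO on control food (0.42).

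Sdhc, a membrane anchor of the same complex, went the other way. It had 10.51, 10.53, 10.69 and 10.22 in KO on Wy14643, 10.64, 10.63, 10.66 and 10.58 in KO on control food, 10.97, 10.88, 10.92 and 10.97 in WT on Wy14643, and 10.31, 10.48, 10.55 and 10.64 in WT on control food. WT on Wy14643 lay above the rest with a WT response of 0.44 ± 0.10 (adjusted p = 0.00321), and the interaction was -0.58 ± 0.14 (adjusted p = 0.00959). Sdhd, the other anchor, gave 0.19 ± 0.08 in WT (adjusted p = 0.114). Sdha, the flavoprotein subunit that the symbol rule leaves out, gave -0.12 ± 0.07 (adjusted p = 0.272).

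**Figure D3:**
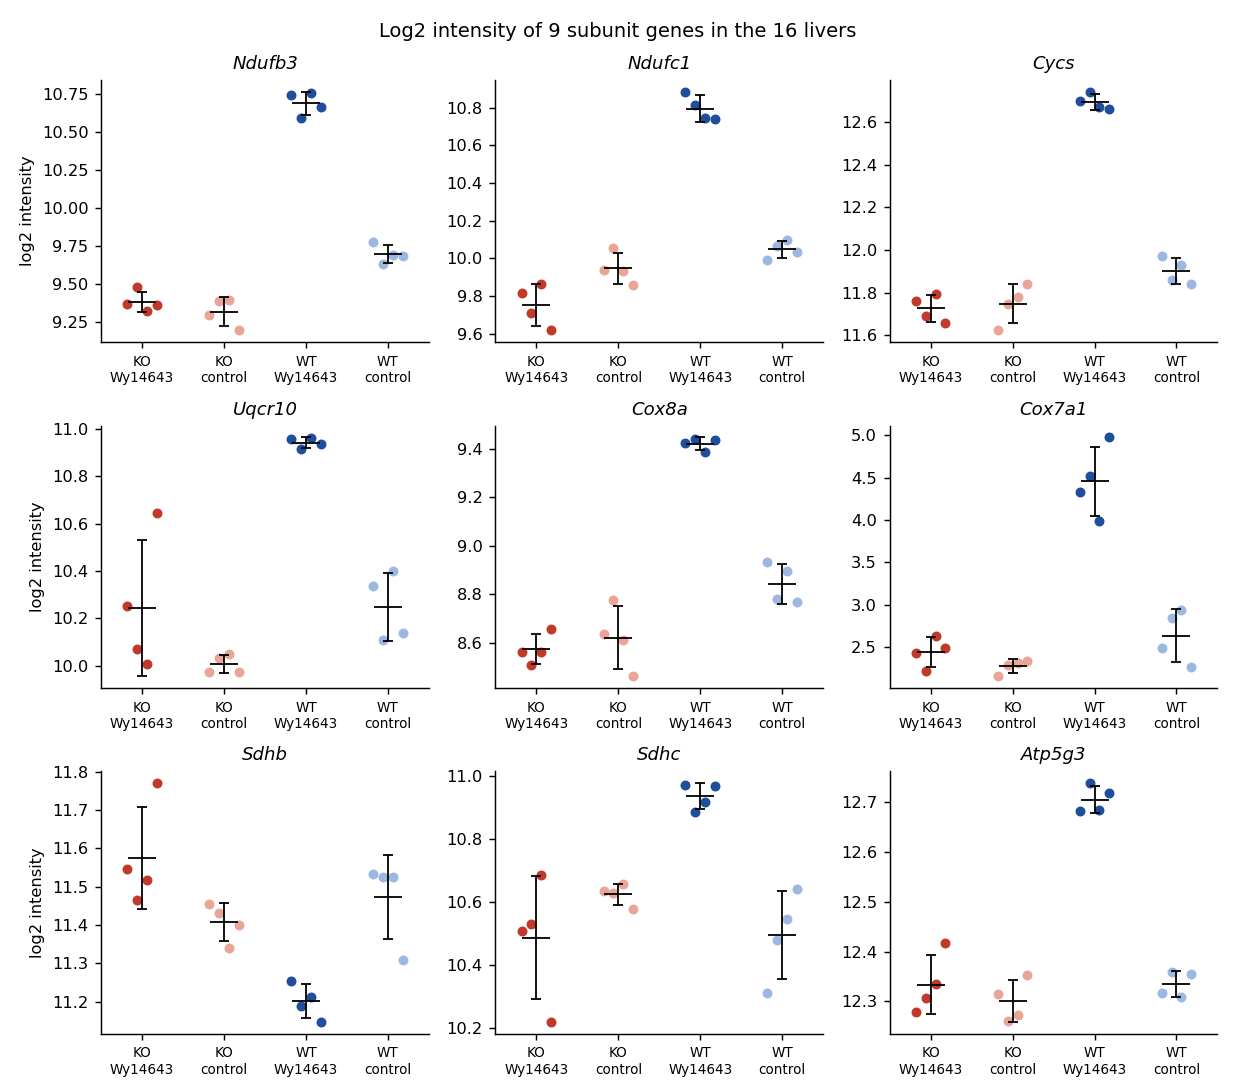
Log2 intensity (vertical axis, a separate range in each panel) of 9 subunit genes in the 16 livers, 1 point per array, in the 4 groups on the horizontal axis, with bars for mean and SD. WT on Wy14643 lies above the other groups in 8 panels, and in that of Sdhb it lies below them with values of 11.15 to 11.25.

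Complex III passes electrons on to cytochrome c. In WT liver 7 of its 9 genes were higher on Wy14643 and 0 lower (median 0.30). Higher were 13.0% of all genes and 24.1% of those with a mean log2 of at least 6. Uqcr10, a small subunit next to cytochrome c1, had 10.25, 10.07, 10.01 and 10.65 in KO on Wy14643, 9.97, 10.03, 10.05 and 9.97 in KO on control food, 10.96, 10.91, 10.96 and 10.94 in WT on Wy14643, and 10.34, 10.11, 10.40 and 10.14 in WT on control food. WT on Wy14643 did not overlap with any other group, and replicate 4 of KO on Wy14643 came closest. The WT response was 0.70 ± 0.12 (1.62-fold, adjusted p = 2.53e-04), that of KO 0.24 ± 0.12 (adjusted p = 0.566), and the interaction did not pass (-0.46 ± 0.17, adjusted p = 0.0897). Its other probe sets gave 0.68 and 0.64 in WT.

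Uqcr11, a small subunit of the complex, rose by 0.55 ± 0.07 in WT (adjusted p = 2.83e-05), and the Rieske iron-sulfur protein Uqcrfs1 by 0.43. Cyc1, cytochrome c1, had 11.62, 11.47, 11.46 and 11.74 in KO on Wy14643, 11.51, 11.51, 11.48 and 11.49 in KO on control food, 11.86, 11.78, 11.80 and 11.82 in WT on Wy14643, and 11.60, 11.53, 11.57 and 11.57 in WT on control food. The difference in WT was small (0.25 ± 0.08, adjusted p = 0.0319) and its call was lost in 7 of 16 refits without 1 array, with 0.23 to 0.26 over the refits, and also with only the arrays compared and after quantile normalization. Uqcrb gave 0.06 ± 0.07 from its brighter probe set and 0.34 from its other one, which passed at 0.05.

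Cycs encodes somatic cytochrome c, the mobile carrier between complexes III and IV that also triggers apoptosis when it leaves the mitochondrion. It had 11.76, 11.69, 11.79 and 11.66 in KO on Wy14643, 11.62, 11.75, 11.78 and 11.84 in KO on control food, 12.70, 12.74, 12.67 and 12.66 in WT on Wy14643, and 11.97, 11.86, 11.93 and 11.84 in WT on control food. WT on Wy14643 lay clear above every other array. The WT response was 0.80 ± 0.08 (1.74-fold, adjusted p = 4.88e-07), the KO response -0.02 ± 0.08 (adjusted p = 0.964) and the interaction -0.82 ± 0.11 (adjusted p = 4.50e-05). The next probe sets of this gene by brightness gave 1.16 and 0.98 in WT, so the representing probe set had the smallest of the 3 values.

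Complex IV, cytochrome c oxidase, reduces oxygen. In WT liver 9 of its 18 genes were higher on Wy14643 and 0 lower (median 0.19). With a mean log2 of at least 6, 8 of 10 were higher (median 0.25). Higher were 13.0% of all genes and 24.1% of those with such a mean. Cox8a, a ubiquitous subunit, had 8.56, 8.51, 8.56 and 8.66 in KO on Wy14643, 8.64, 8.78, 8.61 and 8.46 in KO on control food, 9.42, 9.44, 9.39 and 9.44 in WT on Wy14643, and 8.93, 8.78, 8.89 and 8.77 in WT on control food. WT on Wy14643 lay above all other arrays. Its WT response of 0.58 ± 0.08 was 1.49-fold, just short of the fold limit (adjusted p = 4.67e-05), while a second probe set gave 0.74 and passed it.

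Cox7a1 is the isoform of subunit VIIa known from heart and skeletal muscle. It was dim, with 2.43, 2.22, 2.63 and 2.49 in KO on Wy14643, 2.16, 2.29, 2.31 and 2.34 in KO on control food, 4.34, 4.52, 3.99 and 4.97 in WT on Wy14643, and 2.49, 2.84, 2.93 and 2.26 in WT on control food. The means of the other groups, 2.44, 2.27 and 2.63 (the last in WT on control food), lay little above the highest median of an array (2.24), and all arrays of WT on Wy14643 lay above all others. The WT response was 1.83 ± 0.18 (3.54-fold, adjusted p = 4.91e-07), the KO response 0.17 ± 0.18 (adjusted p = 0.831) and the interaction -1.66 ± 0.25 (adjusted p = 1.62e-04). At this level the size of a fold depends on the background step of GCRMA. The summed intensity of 9 skeletal muscle markers was 32.1 to 35.0 in KO on Wy14643, 30.3 to 32.2 in KO on control food, 30.3 to 57.6 in WT on Wy14643 and 30.9 to 33.9 in WT on control food, and none of the 9 passed the test in WT.

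Cox7a2, the isoform of the same subunit that liver uses, rose by 0.26 ± 0.07 in WT (adjusted p = 0.0101), a call that was lost after quantile normalization (0.20, adjusted p = 0.0529). Cox7a2l, a related protein that joins complexes III and IV into supercomplexes, had 9.34, 9.21, 9.33 and 9.48 in KO on Wy14643, 9.18, 9.06, 9.26 and 9.12 in KO on control food, 9.34, 9.23, 9.36 and 9.17 in WT on Wy14643, and 9.25, 9.22, 9.38 and 9.16 in WT on control food. The groups overlapped, and its 3 probe sets gave 0.02, 0.05 and 0.03 in WT. Cox4i1, Cox6a1 and Cox6b1, the isoforms found in liver, rose by 0.33 ± 0.07, 0.23 ± 0.08 and 0.34 ± 0.07. The call of Cox6a1 (adjusted p = 0.0497) was lost in 14 of 16 refits without 1 array, with 0.21 to 0.25 over the refits, although its second probe set gave 0.48. Ndufa4 gave 0.24 ± 0.08 (adjusted p = 0.0443), lost in 10 of 16 refits, with 0.21 to 0.27.

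Cox5a, the ubiquitous subunit Va, depended on the probe set, with 0.03 from the brightest one and 0.19 and 0.34 from its others. The probe set of Cox7c had a mean of only 2.6, so this subunit was hardly measured.

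The other isoforms with a narrow tissue distribution stayed dim in all groups. The lung isoform Cox4i2 had means of 1.32 in KO on Wy14643, 1.27 in KO on control food, 1.39 in WT on Wy14643 and 1.33 in WT on control food. The muscle isoforms Cox6a2 and Cox8b and the testis isoform Cox8c gave 0.06, 0.07 and 0.08 in WT, with group means of 1.34 to 1.82, all below the array medians. Ndufa4l2, a hypoxia-induced relative of Ndufa4, had group means of 1.30 to 1.68, also below the array medians. Cox6b2, the testis isoform of subunit VIb that the rule leaves out, had 1.88 to 3.05 in KO on Wy14643, 1.62 to 2.34 in KO on control food, 10.44 to 10.67 in WT on Wy14643 and 7.65 to 8.16 in WT on control food. It rose by 2.63 ± 0.20 in WT on Wy14643 (adjusted p = 2.34e-08), and on control food KO minus WT was -5.88 ± 0.20 (adjusted p = 3.75e-11), the smallest adjusted p of all genes in that comparison. The sum of 10 testis markers was 37.7 to 55.3 in KO on Wy14643, 38.7 to 44.0 in KO on control food, 38.6 to 49.97 in WT on Wy14643 and 40.6 to 44.1 in WT on control food. Of the 10, the sperm mitochondrial protein gene Smcp was called higher in the WT response (1.08 ± 0.22, adjusted p = 0.00169), with means of 2.85 in WT on Wy14643 and 1.77 in WT on control food, and 0 were called lower.

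The ATP synthase makes ATP from the proton gradient. Of its 17 genes 8 passed upward in WT liver and 0 downward. The median difference of the 17 was 0.23 and the highest 0.45. Upward calls were made for 13.0% of all genes and 24.1% of those with a mean log2 of at least 6. In the F1 part, which holds the catalytic sites, 1 of 5 genes was higher (Atp5a1, 0.24), and in the peripheral stalk 2 of 4 were (Atp5pb, 0.43, and Atp5o, 0.31). Of the small membrane subunits 4 of 5 were higher, led by Atp5mpl with 0.45 ± 0.08 (adjusted p = 4.13e-04) and Atp5k, subunit e, with 0.44 ± 0.09 (adjusted p = 0.00148). Atp5e, the epsilon subunit of F1, gave -0.10 ± 0.09 (adjusted p = 0.519), the lowest value of this complex. Atp5h, subunit d of the stalk, gave 0.02 and its second probe set 0.25, and Atp5d, the delta subunit of F1, gave 0.17 and 0.46. The interaction passed for 4 of the 17 (Atp5g3, Atp5pb, Atp5k and Atp5mpl), all with the lower response in KO. In that direction it passed for 8.76% of all genes and 16.5% of those with a mean log2 of at least 6. Atp5g3, Atp5k and Atp5mpl lost that call in 11, 11 and 10 of 16 refits without 1 array.

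Subunit c of the proton-driven ring is encoded by Atp5g1, Atp5g2 and Atp5g3, which yield the same mature protein. Atp5g3 had 12.28, 12.31, 12.34 and 12.42 in KO on Wy14643, 12.32, 12.26, 12.27 and 12.35 in KO on control food, 12.68, 12.74, 12.68 and 12.72 in WT on Wy14643, and 12.32, 12.36, 12.31 and 12.35 in WT on control food. WT on Wy14643 lay above all other arrays, and the WT response was 0.37 ± 0.07 (adjusted p = 8.02e-04). Atp5g1 and Atp5g2 gave 0.20 ± 0.07 and 0.23 ± 0.09 without passing the limit (adjusted p = 0.0718 and 0.0707), although their WT groups did not overlap either. Whether the 3 genes differ in response was not tested.

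Between the genotypes on Wy14643, subunit genes were lower in KO. At an adjusted p under 0.05, 54 of 82 were lower and 2 higher, where 13.7% of all genes were lower and 13.7% higher. Among genes with a mean log2 of at least 6 it was 52 of 72 lower, against 25.6% of all such genes. The median was -0.31 over the subunit genes and 0.04 over all genes. By the stricter rule 10 of 82 were lower (12.2%, against 8.12% of all genes) and 0 higher (against 7.13%). With a mean log2 of at least 6 that rule called 9 of 72 lower (12.5%), near the 13.5% of all such genes. Arrays did not overlap in 59 genes that were lower in KO and in 3 that were higher, where 13.9% of all genes fell on either side. With a mean log2 of at least 6 it was 57 of 72 lower and 2 higher, against 27.0% and 28.3% of all such genes. The 10 were Ndufb3 (-1.31 ± 0.08), Ndufc1 (-1.04 ± 0.08), Ndufa5 (-0.68), Ndufab1 (-0.61), Ndufs4 (-0.61), Uqcr10 (-0.70), Uqcr11 (-0.62), Cycs (-0.97 ± 0.08), Cox8a (-0.85 ± 0.08) and Cox7a1 (-2.02 ± 0.18). The 2 called higher at an adjusted p under 0.05 were Sdhb (0.37 ± 0.09, adjusted p = 0.00389) and the dim Ndufa4l2 (0.38). This comparison and the WT response share the arrays of WT on Wy14643, so their values are not independent. By complex, 25 of 34 genes of complex I, 2 of 3 of complex II, 5 of 9 of complex III, 9 of 18 of complex IV and 12 of 17 of the ATP synthase were lower in KO.

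On control food the genotypes differed little. By limma 1 of 82 subunit genes was lower in KO, Ndufb3 with -0.38 ± 0.08 (adjusted p = 0.0361), and 0 were higher, where 0.616% of all genes were lower and 0.33% higher. By the stricter rule it was 0, against 0.544% of all genes in either direction. At an unadjusted p under 0.05 there were 7, all lower in KO (8.54%, against 9.6% of all genes). The median was -0.07, against 0.00 over all genes, and 63 of the 82 differences were negative. Arrays did not overlap in 23 genes that were lower in KO and in 2 that were higher, against 4.18% and 3.99% of all genes. All of these had a mean log2 of at least 6, where the shares of all genes were 8.94% and 7.27%. Among these 23 were Uqcr10 (-0.24), Atp5mpl (-0.20), Sdhd (-0.18), Cox4i1 (-0.08) and Cyc1 (-0.07). The call of Ndufb3 was lost in 9 of 16 refits without 1 array, with differences of -0.40 to -0.34, among them those without any 1 of the 8 arrays compared and that without replicate 1 of KO on Wy14643.

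**Figure D4:**
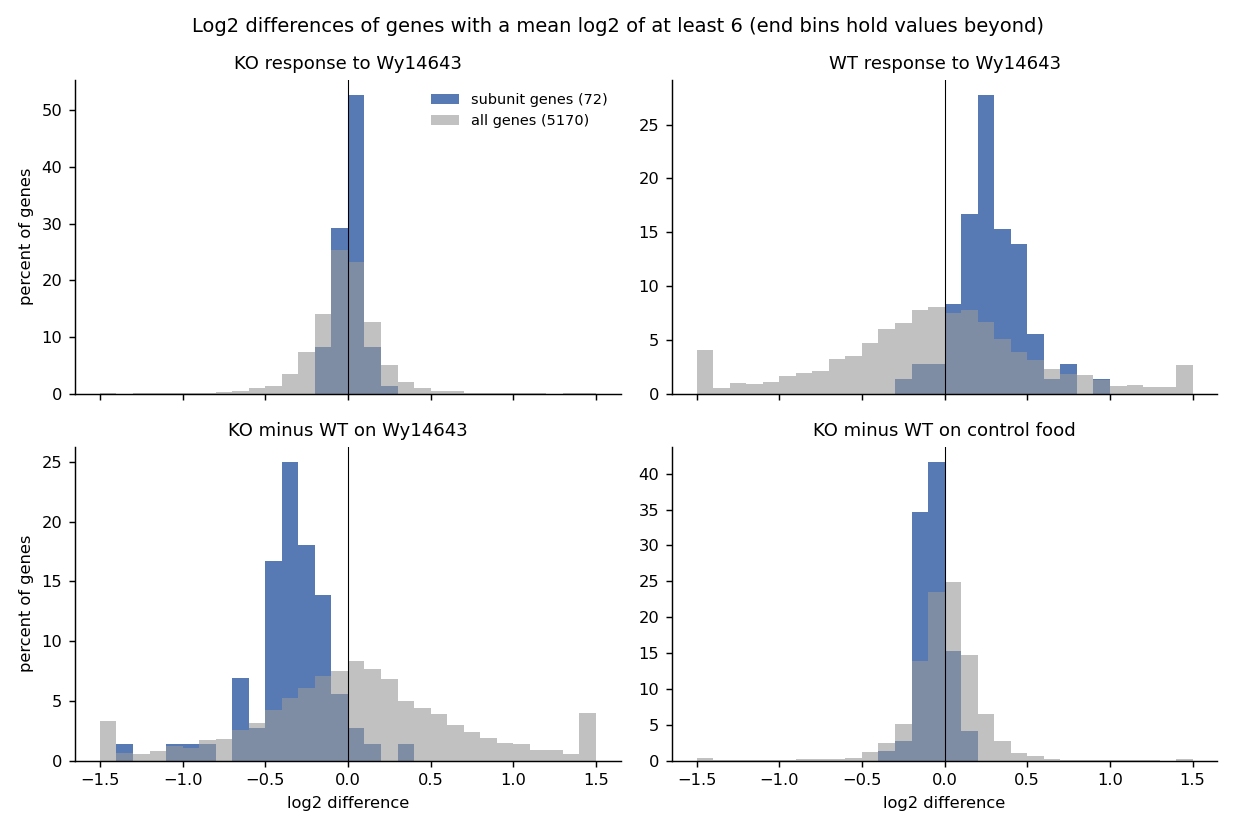
Share of genes (vertical axis, percent) by log2 difference (horizontal axis, bins of 0.1) for the 72 subunit genes (blue) and all 5170 genes (grey) with a mean log2 of at least 6, in 4 comparisons. The medians of the 72 lie at 0.02 for the KO response, 0.26 for the WT response, -0.34 for KO minus WT on Wy14643 and -0.08 for KO minus WT on control food.

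Other genes that serve the chain were taken as lists, given by counts at an adjusted p under 0.05 in WT liver, where 13.0% of all genes were higher and 13.0% lower. Of 52 assembly factors 12 rose and 6 fell, and those named are the largest rises and the largest fall. The copper chaperones for complex IV, Cox19 (0.97 ± 0.09) and Cox17 (0.90 ± 0.09), rose, as did Coa6 (0.89), whereas Ndufaf6, an assembly factor of complex I, fell by 0.60. The median of the list was 0.12. Of 12 genes of coenzyme Q synthesis 7 rose and 3 fell, with Coq4 (1.56) and Coq6 (1.21) higher and the kinase-like Coq8a lower (-1.27).

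Enzymes that deliver electrons to coenzyme Q from other substrates rose in 4 cases of 9 and fell in 2. The mitochondrial glycerol-3-phosphate dehydrogenase Gpd2 rose by 1.06, whereas proline dehydrogenase (Prodh) and sulfide quinone oxidoreductase (Sqor) gave -2.43 and -1.59. Of 18 regulators of mitochondrial biogenesis 5 rose and 0 fell, where 13.0% of all genes were higher and 13.0% lower. The 5 included Tfam, which binds and packages mitochondrial DNA (0.75 ± 0.10), and its partner in transcription Tfb2m (0.64). Esrrg (1.18) was among them too, but was dim with a mean of 4.04 in WT on Wy14643 and 2.86 in WT on control food. Of 11 subunits and carriers outside the rule 7 were higher and 0 lower, among them the muscle and heart adenine nucleotide carrier Slc25a4 (4.13 ± 0.15) and the ATP synthase inhibitor Atpif1 (0.82 ± 0.12).

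As a further comparison, 76 genes of mitochondrial ribosomal proteins had a median WT response of 0.28, with 41 higher and 4 lower, and 48 genes of cytosolic ribosomal proteins one of 0.09, with 9 higher and 1 lower. Of all genes 13.0% were higher and 13.0% lower. No test of the difference between the lists was made.

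Markers of other liver cells moved in the same comparison. The sum of 14 Kupffer cell markers was 1458 to 1977 in KO on Wy14643, 1649 to 2015 in KO on control food, 763 to 996 in WT on Wy14643 and 1427 to 1650 in WT on control food, and 11 of the 14 were lower in the WT response, against 13.0% of all genes. Of 14 endothelial markers 1 was higher and 7 lower, and of 14 stellate cell markers 7 were lower, with a sum of 3417 to 3922 in KO on Wy14643, 3360 to 3834 in KO on control food, 2064 to 2351 in WT on Wy14643 and 3097 to 3369 in WT on control food. Of the 12 hepatocyte markers 8 were lower, which goes with the sums given above. In whole liver, fewer cells of a type and less RNA per cell cannot be told apart. Of 5 adipocyte markers 1 was lower in the WT response, and cholangiocyte, lymphocyte and neutrophil markers stayed dim on all arrays, with sums of 20.5 to 31.3, 21.9 to 28.0 and 17.2 to 22.7, although 1 of 6 neutrophil markers was called lower. The part of cell composition in the differences of subunit genes was not tested. Of 2 signs of RNA quality, the 3' minus 5' difference of the Gapdh control probe sets was -0.03 to 0.10 in KO on Wy14643, 0.08 to 0.10 in KO on control food, -0.05 to 0.04 in WT on Wy14643 and -0.02 to 0.12 in WT on control food. WT on Wy14643 was lowest on average and did not overlap with KO on control food, and the part of this in the results was not tested. That of Actb was 0.99 to 1.27 in KO on Wy14643, 1.12 to 1.37 in KO on control food, 1.09 to 1.32 in WT on Wy14643 and 1.01 to 1.30 in WT on control food.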

How the data were processed

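Total RNA of 16 livers was hybridized to Affymetrix mouse genome 430 2.0 arrays. The authors computed the deposited probe set intensity values with GCRMA 2.20 (background correction, quantile normalization and a summary per probe set), per the labels and the study's methods. The values were all positive with array medians of 4.42 to 4.72 and maxima of 18107 to 22364, so they were read as linear, and log2 was taken with no offset. This reading is inferred from the values. GCRMA compresses dim probe sets, so folds of dim genes are uncertain. Arrays hold no counts, so their number limits the precision. The 64 control probe sets were left out.

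Groups came from the sample labels. With limma 3.58.1 in R 4.3.3, 4 group means were fitted to 16 arrays, 5 comparisons were tested two-sided, and p-values were adjusted (Benjamini-Hochberg) over 45037 probe sets. Calls used the methods' limits (adjusted p under 0.01 and fold over 1.5) and, for small shifts, an adjusted p under 0.05 alone. The probe set with the highest mean log2 represented each gene. Gene names came from the platform annotation, checked against RefSeq GRCm38.p6: 34945 probe sets named 1 gene, 932 several and 9160 none, and 34741 matched the gene table. The replicates were separate mice per the labels. The fit was also run on simulated data with independent noise for each value, and no result of that run is used here.

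The members and lists were chosen with earlier results of these data known. Named genes were those called by the methods' limits in any comparison, the 2 highest and the 1 lowest WT responses of each complex among genes with a mean log2 of at least 6, the isoform families, Cycs, Cyc1 and the subunit c genes. Up to 3 called genes were named per list, and Ndufaf6, the largest fall among the assembly factors, was named outside this rule. Ndufa3, Ndufb1, Ndufb4, Ndufb10, Ndufs1, Ndufs7, Ndufv1, Uqcrfs1, Cox5a, Cox7c, Atp5a1, Atp5d, Atp5h, Atp5pb, Atp5o, the genes named from an unadjusted p or from the control-food comparison alone, the splits of complex I and the ATP synthase by part, the motif letters and the 4 printed promoters were chosen after their values were seen. The fit did not pair mice by replicate number. In their deviations from the group mean, same-number arrays of different groups correlated with a median of 0.05, and others with a median of -0.02. Of 24 same-number pairs 6 correlated above 0.1, and whether the number marks a shared structure was not tested. Alternatives were array weights, centring on the median, log2 of the value plus 16, a mean log2 above 4 or above 6, the mean of all probe sets of a gene, only the arrays compared, quantile normalization, a replicate block, trend and robust moderation, a test against a fold of 1.2 and leaving out each array in turn.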

Additional observations from a re-analysis of the deposited data

Results flagged for a closer look

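In 7 of 132 sets of 4 arrays (named subunit genes by group) 1 array stood far from the other 3, where chance gives about 1 in 20. Ndufab1 had its lowest value in replicate 4 of KO on Wy14643 (10.79) and in replicate 4 of KO on control food (10.94). Sdhb was lowest in replicate 4 of WT on control food (11.31), Cox6a1 in replicate 1 of WT on Wy14643 (12.92) and Cox7a2 in replicate 2 of KO on Wy14643 (11.89). Atp5g1 was highest in replicate 1 of WT on Wy14643 (11.18) and Atp5k in replicate 1 of WT on control food (10.71).

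The responses of KO and WT differed by the interaction test (limma, adjusted p under 0.05) in 14 named subunit genes. The KO response minus the WT response was -0.70 for Ndufa5, -0.60 for Ndufab1, -0.93 for Ndufb3, -0.94 for Ndufc1, -0.48 for Ndufs4, 0.44 for Sdhb and -0.58 for Sdhc. It was -0.50 for Uqcr11, -0.82 for Cycs, -1.66 for Cox7a1, -0.63 for Cox8a, -0.34 for Atp5g3, -0.42 for Atp5k and -0.38 for Atp5mpl. The last 3 lost the call in 11, 11 and 10 of 16 refits without 1 array.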

How the results depend on the processing

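Medians of the subunit genes kept their direction under all alternatives in 4 comparisons, and that of the KO response, 0.02, was -0.00 after centring. The counts below are at an adjusted p under 0.05 in both directions (48 in the WT response, 56 for KO minus WT on Wy14643, 1 for KO minus WT on control food, 23 for the interaction). Against a fold of 1.2, they were 9, 14, 0 and 5. The interaction count was 44 with log2 of the value plus 16 and 42 with trend and robust moderation. With a mean log2 above 4 and above 6 it was 39 and 43, each of 72 subunit genes. Shares of all genes were not counted under the alternatives, so these rises cannot be read as particular to the subunit genes. On control food the count was 2 with the value plus 16, and 0 after centring, after quantile normalization and with only the arrays compared. The median of KO minus WT on Wy14643 was -0.34 with a mean log2 above 4 or 6, as in the main fit over the 72 bright genes. It was -0.28 with the mean of all probe sets and -0.26 after quantile normalization, and the median interaction was -0.27 after centring. The cause of the other shifts was not tested.

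Without 1 array, counts were 36 to 50 in the WT response, 49 to 55 for KO minus WT on Wy14643, 0 to 1 on control food and 18 to 25 for the interaction. By the stricter rule they were 5 to 7, 8 to 12, 0 and 6 to 8, and both rules gave 0 in the KO response. Medians were 0.24 to 0.26 (WT), 0.01 to 0.03 (KO), -0.32 to -0.29 (genotypes on Wy14643), -0.08 to -0.05 (control food) and -0.25 to -0.22 (interaction). Stricter calls of KO minus WT on Wy14643 were lost for Ndufab1 without replicate 4 of KO on Wy14643, for Uqcr11 without replicate 3 of it, and for Ndufs4 without replicate 3 of it or replicate 4 of WT on Wy14643. Both Ndufab1 and Ndufs4 lost them after quantile normalization and with the mean of all probe sets as well, and Ndufab1 also with array weights. Cox7a2 lost its call at 0.05 there after quantile normalization (-0.18) and with only the arrays compared.

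With the replicate number as a block, the count on control food was 0, since Ndufb3 lost its call. Sdhb and Cox6a1 lost the WT call, Cyc1 and Atp5g1 that between genotypes on Wy14643, and Atp5g3, Atp5k and Atp5mpl that of the interaction. Same-number arrays of different groups correlated at -0.12 to 0.19 in their deviations, and those of different number at -0.28 to 0.20. Of 16 arrays 6 correlated best with their own number. Whether the numbers do more than name the mice was not tested. The 10 subunit genes with a mean log2 under 6 limit what the arrays can show.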
